A study of Mus musculus with 2 samples.

Results

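The genes described here encode enzymes that make, recycle and break down nucleotides, together with the enzymes of serine synthesis and folate metabolism that supply them with carbon units. They were read in the mouse line G1E, immortalised erythroid progenitors that are Gata1-minus, postnatal and male per the labels, with no treatment named. The list held 37 genes chosen by function, though with earlier results of these data known. Of these, 36 were found by identifier among the 43346 genes of the deposited tables. The identifier of Pnp, a nucleoside phosphorylase, found no match, and the gene was not analysed here. There was 1 group with 2 poly(A) RNA libraries, labelled biological replicates 1 and 2 and citing the same biosample, and no second condition. Separate cultures are not named, so any spread between the libraries may be technical, and with 1 line no level can be tied to the Gata1 genotype.

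Proliferating cells build purines on a ribose phosphate scaffold, PRPP, in a chain of steps that ends in IMP, from which AMP and GMP branch off. Pyrimidines are assembled as a ring first and joined to PRPP afterwards. The salvage route instead reattaches free bases to PRPP or phosphorylates nucleosides, and costs the cell less energy. Purine rings take formyl groups from folate, which is charged mainly with a carbon unit from serine. Serine is made from a glycolytic intermediate by the enzymes PHGDH, PSAT1 and PSPH, or taken up from outside the cell.

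The libraries held 31645051 and 56983558 expected counts, which are estimated reads per gene and need not be whole. Their effective lengths imply read lengths of 36 nt for replicate 1 and 55 nt for replicate 2. Levels are given in TPM, a length-corrected share of each library's total, for each replicate or as mean ± SD of both. Of that total, 84.4% fell on protein-coding genes in replicate 1 but 75.1% in replicate 2, which lowers the TPM of these genes in replicate 2. Of the 8 erythroid markers examined, such as Klf1 and Epor, 8 reached at least 1 TPM in each library. Some differed between replicates 1 and 2. Hba-a1 (496 and 1683 TPM) and Hba-a2 (757 and 2019 TPM) were higher in replicate 2. Gfi1b (764 and 363 TPM) and Gata2 (626 and 326 TPM) were higher in replicate 1, and the other markers stood closer. None of the 5 granulocyte and monocyte, 4 lymphoid, 3 muscle, 2 fibroblast and endothelial markers and 1 liver marker did, and the summed level of each of these lists was at most 2.58 TPM in either library. The megakaryocyte markers Pf4 and Itga2b had means of 12.5 and 25.4 TPM while Gp1bb was listed at 0. The mast cell marker Cpa3 was at 4.66 and 15.3 TPM in replicates 1 and 2 while Mcpt8 was listed at 0.

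Nearly the whole set was transcribed, at levels above those of a typical expressed gene. Of the 36 genes, 33 reached at least 1 TPM in each library, beside 42.5% of the 21474 protein-coding genes. Their median level was 55.1 and 61.4 TPM in replicates 1 and 2, while protein-coding genes expressed in both libraries had medians of 23.1 and 22.5 TPM. The level of 17 members lay above that of 90% of protein-coding genes. The lowest 3 members were Adssl1, Phgdh and Ada, all under 1 TPM in both libraries. The highest was Shmt2 at 649 ± 209 TPM (SD, n = 2).

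**Figure D1:**
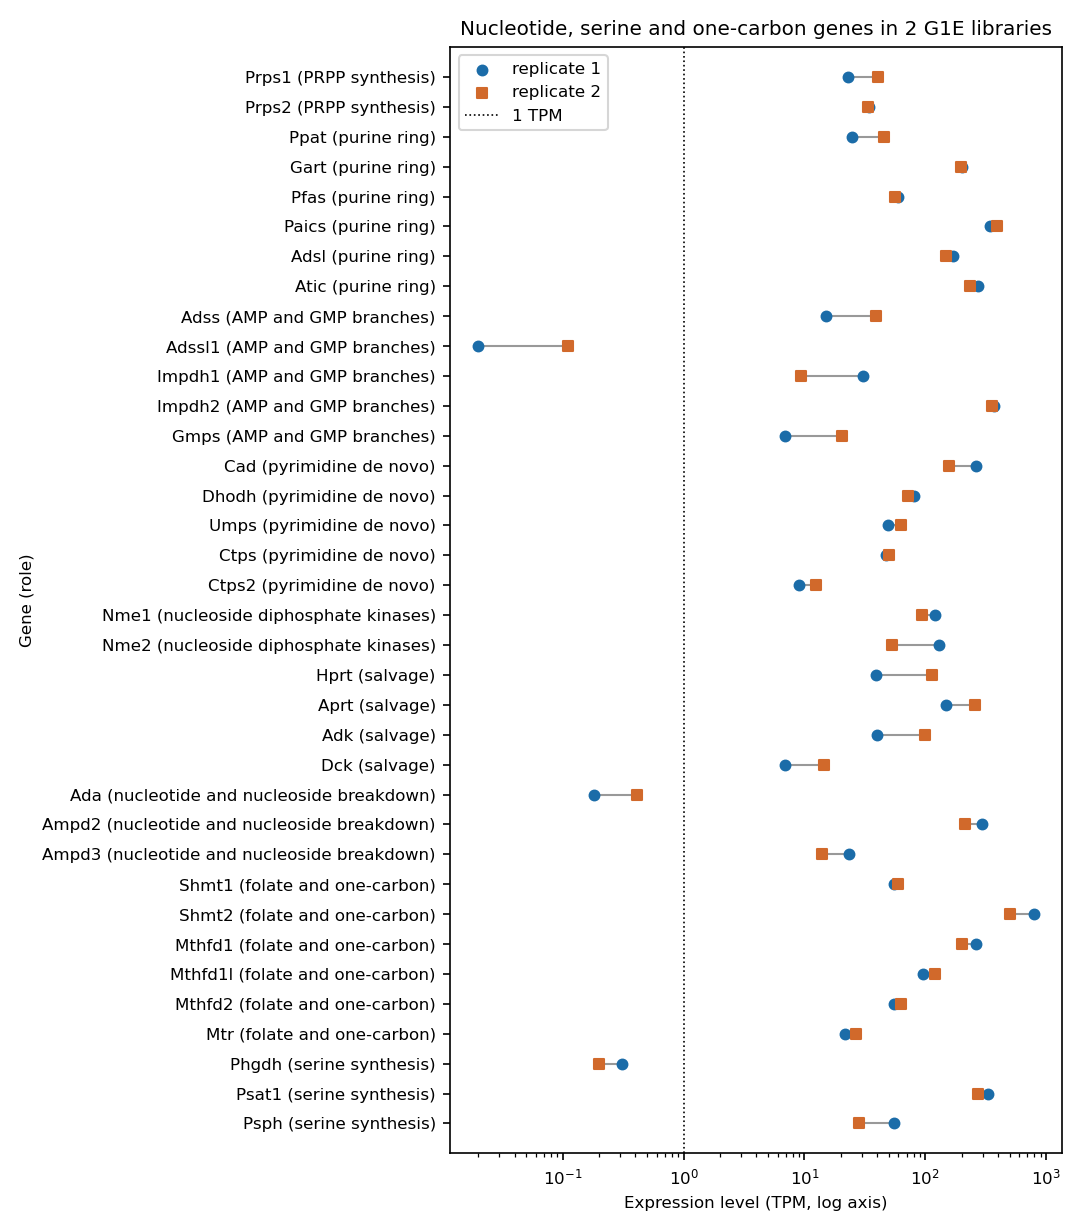
Level of each of the 36 genes in TPM on a log axis, with circles for replicate 1, squares for replicate 2 and the role of each gene in parentheses. The 33 expressed genes lie right of the dotted line at 1 TPM, and Adssl1, Ada and Phgdh lie left of it in both libraries.

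PRPP, the activated ribose that both purine and pyrimidine routes need, is made by the synthetases PRPS1 and PRPS2. Prps1 (chromosome X: 140456613 to 140476140 of GRCm38, plus strand) had 23.1 TPM and 40.3 TPM in replicates 1 and 2, a mean of 31.7 ± 12.1 TPM (SD, n = 2). Prps2 was at 34.2 and 33.9 TPM. The genes changed order between the libraries, and their difference in log2(TPM + 1), -0.15 ± 0.56 (SD, n = 2), was smaller than the spread between libraries. Much of the Prps2 level was assigned to Prps2-202, a non-coding transcript of 599 nt, with 84.4% of the gene's TPM in replicate 1 and 69.9% in replicate 2. Spread over the longest coding transcript instead, Prps2 had 14.8 ± 3.1 TPM (SD, n = 2), and Prps1 stood at 33.5 ± 22.9. Prps1 shares 15.8% of its 36-base stretches with the related gene Prps1l3, which had 27.5 and 64.0 TPM, so the reads of that pair may have been split between them.

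The 6 enzymes of the purine ring included some of the most abundant members, with medians of 186 and 173 TPM in replicates 1 and 2. Paics, a bifunctional enzyme of the middle steps, was at 346 and 389 TPM, a mean of 368 ± 30.4 (SD, n = 2). Atic, which closes the ring to give IMP, was at 271 and 234 TPM. Gart, a trifunctional enzyme with a folate-dependent formylation step, was at 201 and 198 TPM. Adsl, which acts both in the ring and in the AMP branch, was at 171 and 149 TPM. Pfas, which adds a ring nitrogen from glutamine, was at 59.7 and 55.6 TPM. The lowest was Ppat, the amidotransferase that commits PRPP to the route, at 24.6 and 45.3 TPM (mean 34.9 ± 14.7, SD, n = 2). In deposited TPM the ring enzymes other than Ppat had close levels in both libraries, and Ppat was higher in replicate 2. On counts scaled by library size, the log2 ratio of replicate 2 over replicate 1 was 0.82 for Paics and 1.07 for Ppat.

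Part of the Paics level rests on a short transcript. Paics-205, a coding transcript of 422 nt, received 55.1% of the gene's TPM in replicate 1 and 38.4% in replicate 2. Over the longest coding transcript of 2482 nt, Paics had 176 and 244 TPM, a mean of 210 ± 47.9 (SD, n = 2), still far above Ppat at 34.2 ± 11.7. Adsl moved from 160 to 89.9 TPM by this rule, although transcripts under 1000 nt held only 0.486% and 1.37% of its level. The longest coding transcript of Adsl has 3712 nt and held under 5% of the gene's level in each library, so the lower value rests on a minor form. The leading transcript of Adsl, Adsl-205 of 1932 nt, is annotated as subject to nonsense-mediated decay. Gart-201, the full-length form of 3518 nt, held 83.0% and 91.2% of the Gart level. The remainder was almost all Gart-202, of 1865 nt, at 17.0% and 8.72%. Atic-201 held 98.8% and 98.4% of the Atic level. Ppat-201, a retained-intron form, held 36.7% and 49.3% of the Ppat level.

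Ppat and Paics are neighbours read in opposite directions. Ppat (minus strand, chromosome 5: 76913249 to 76951578) and Paics (plus strand, chromosome 5: 76951307 to 76967509) overlap at their 5′ ends over 272 exon bases, from 76951307 to 76951578. The sources used here do not state whether the counting used strand, and reads in those bases may belong to either gene. The start windows of these neighbours are shown because they face each other across this overlap, and that of Atic because it holds the same motif as that of Paics. They were taken from RefSeq on GRCm38.p6, run 5′ to 3′ on the gene's own strand around its RefSeq start, and capitals mark the E-box CACGTG, a 6-base motif bound by MYC and related factors.
Ppat, chr5:76951529-76951828, minus strand: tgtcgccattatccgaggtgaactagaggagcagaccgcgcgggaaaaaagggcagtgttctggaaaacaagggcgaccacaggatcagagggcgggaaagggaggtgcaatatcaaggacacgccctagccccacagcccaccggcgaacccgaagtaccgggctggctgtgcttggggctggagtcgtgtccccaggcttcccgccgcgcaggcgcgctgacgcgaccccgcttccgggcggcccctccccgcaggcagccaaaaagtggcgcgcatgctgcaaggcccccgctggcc
Paics, chr5:76951052-76951351, plus strand: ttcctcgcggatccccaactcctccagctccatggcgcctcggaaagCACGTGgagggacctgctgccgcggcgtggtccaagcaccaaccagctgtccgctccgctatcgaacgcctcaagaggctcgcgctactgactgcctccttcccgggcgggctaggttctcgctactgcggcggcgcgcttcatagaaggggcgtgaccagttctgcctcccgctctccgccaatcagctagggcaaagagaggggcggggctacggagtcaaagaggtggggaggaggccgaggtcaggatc
Atic, chr1:71556906-71557205, plus strand: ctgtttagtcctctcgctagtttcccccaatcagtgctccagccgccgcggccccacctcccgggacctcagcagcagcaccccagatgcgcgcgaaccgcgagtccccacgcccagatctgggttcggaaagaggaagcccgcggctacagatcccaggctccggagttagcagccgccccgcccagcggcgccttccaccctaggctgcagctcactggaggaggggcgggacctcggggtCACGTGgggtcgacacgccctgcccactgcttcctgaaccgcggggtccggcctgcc
The Paics window holds its E-box 203 bases before the start and the Atic window 7 bases before the start, while the Ppat window holds none. All 3 windows have 27 CG dinucleotides each, beside a median of 7 over all 32851 windows of the table.

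In the branches that lead from IMP to AMP and GMP, 1 enzyme of each paralog pair was far more abundant. Impdh2, the IMP dehydrogenase of dividing cells, was at 371 and 359 TPM, a mean of 365 ± 8.48 (SD, n = 2). Impdh1 was at 30.6 and 9.37 TPM. The difference in log2(TPM + 1) was 4.34 ± 1.10 (SD, n = 2), beyond the bound of 1.23 that the spread between libraries sets for such a mean, and of the same sign in both libraries. Impdh2 (chromosome 9: 108560286 to 108565584, plus strand) shares 42.5% of its 36-base stretches with other genes, mainly the processed pseudogene Impdh2-ps, which had 53.9 and 20.4 TPM. The sum of that gene and its pseudogene was 425 and 380 TPM. The start window of Impdh2 is shown because the gene is the most abundant of the branch, and its E-box lies 110 bases before the start.
Impdh2, chr9:108560186-108560485, plus strand: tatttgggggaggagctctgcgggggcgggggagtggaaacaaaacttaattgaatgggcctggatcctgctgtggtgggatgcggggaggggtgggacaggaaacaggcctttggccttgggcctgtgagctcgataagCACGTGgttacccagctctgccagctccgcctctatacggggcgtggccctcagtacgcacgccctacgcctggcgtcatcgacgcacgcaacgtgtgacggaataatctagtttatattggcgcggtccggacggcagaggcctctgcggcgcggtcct

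Gmps, which turns XMP into GMP, was at 6.91 and 20.3 TPM, a mean of 13.6 ± 9.49 (SD, n = 2), and was thus 1 of the lower members in either library. Adss, the first enzyme of the AMP branch, was at 15.04 and 39.0 TPM. Its muscle paralog Adssl1 was at 0.02 and 0.11 TPM, from 1 and 9 expected counts. Adss and Adssl1 differed by 4.57 ± 0.85 in log2(TPM + 1) (SD, n = 2), beyond the bound, though with so few Adssl1 reads the size depends on the pseudocount and was 7.26 in log2(TPM + 0.1). Of the 3 muscle markers, Acta1 was at 0.03 TPM in both libraries, Ckm was listed at 0, and Myh1 was at 1.23 TPM in replicate 1 and listed at 0 in replicate 2.

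All 5 enzymes of pyrimidine synthesis were expressed. Cad, the trifunctional enzyme of the opening steps, was at 260 and 158 TPM, a mean of 209 ± 72.6 (SD, n = 2). Dhodh, the mitochondrial dehydrogenase of the route, was at 80.8 and 71.3 TPM. Umps, which joins the ring to PRPP and yields UMP, was at 49.2 and 62.7 TPM. Ctps, a CTP synthetase, was at 47.5 and 50.4 TPM and exceeded its paralog Ctps2, at 9.07 and 12.5 TPM, by 2.10 ± 0.24 in log2(TPM + 1) (SD, n = 2). Cad was thus the leading gene of the route in both libraries, and Ctps2 the lowest.

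The transcript assignment of these genes differed between the libraries. In replicate 1 the leading transcript of Cad was a 582-nt form that is absent from GENCODE M21, with 47.0% of the gene's TPM, and in replicate 2 it was Cad-201 of 7137 nt, with 51.0%. Over the longest coding transcript the mean of Cad was 135 ± 39.9 TPM (SD, n = 2). Of the Dhodh level, 0% and 0.869% fell on transcripts that M21 lists as coding. A form of 2318 nt that is absent from M21, and whose coding status was not looked up, held 19.9% and 30.8%, and retained-intron forms such as Dhodh-202 and Dhodh-204 held most of the rest. Ctps moved from the non-coding Ctps-202, with 58.8% in replicate 1, to the coding Ctps-201, with 82.2% in replicate 2.

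The nucleoside diphosphate kinases Nme1 and Nme2 pass phosphate to the final nucleoside triphosphates. Nme1 was at 121 and 94.3 TPM, and Nme2 at 130 and 52.9 TPM. Their difference, 0.36 ± 0.65 in log2(TPM + 1) (SD, n = 2), lay inside the bound and changed sign between the libraries. Over the longest coding transcripts it was -1.25, beyond the bound in the other direction. Nme1-201, of 493 nt, took 87.4% and 59.0% of the Nme1 level. The longest coding form, Nme1-203 of 3181 nt, took 9.69% and 34.3%, so that reversal rests on a minority form. Both genes overlap the protein-coding gene Gm20390 (chromosome 11: 93949819 to 93968293, minus strand), which had 307 and 362 TPM. Nme2 shares 47.7% of its 36-base stretches with other genes and Nme1 11.5%. The summed level of the 3 genes was 534 ± 35.3 TPM (SD, n = 2), and how it divides among them is uncertain.

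All 4 salvage enzymes were expressed, and all 4 were higher in replicate 2. That direction was common. On scaled counts, 26 of 33 members and 7844 of 12414 genes with at least 50 counts in total were higher in replicate 2. Aprt, which salvages adenine, led with 147 and 257 TPM (mean 202 ± 77.6, SD, n = 2). Hprt, which salvages hypoxanthine and guanine, was at 38.8 and 114 TPM (mean 76.2 ± 52.8, SD, n = 2). Adk, the adenosine kinase, was at 39.6 and 99.0 TPM (mean 69.3 ± 42.0, SD, n = 2). Dck, the kinase of deoxycytidine and some other deoxynucleosides, was at 6.88 and 14.6 TPM (mean 10.8 ± 5.48, SD, n = 2). The order Aprt, then Hprt and Adk, then Dck was seen in both libraries, and Hprt and Adk differed by less than their spread. Hprt minus Aprt was -1.53 ± 0.51 and Adk minus Dck 2.52 ± 0.22 in log2(TPM + 1) (SD, n = 2), both beyond the bound. Each of these 4 genes has 1 transcript in the tables, so no transcript assignment enters their levels.

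Of the enzymes that break nucleotides down, Ampd2 was prominent and Ada was nearly silent. Ampd2, an AMP deaminase, was at 293 and 214 TPM, a mean of 253 ± 55.3 (SD, n = 2). Of the Ampd2 level, 52.1% and 61.6% fell on coding transcripts, and retained-intron forms such as Ampd2-206 held much of the rest. Ampd3, the form known as the erythrocyte isozyme, was at 23.5 and 14.0 TPM. Ampd2 exceeded Ampd3 by 3.71 ± 0.18 in log2(TPM + 1) (SD, n = 2), and the difference was 3.31 over the longest coding transcripts. Ada, the adenosine deaminase whose loss causes severe immunodeficiency, was at 0.18 and 0.41 TPM, from 7 and 27 expected counts. Ada (chromosome 2: 163726584 to 163750239, minus strand) shares no 36-base stretch with another gene.

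All 6 folate enzymes were expressed, led by the mitochondrial serine hydroxymethyltransferase Shmt2. Shmt2 (chromosome 10: 127517123 to 127522444, minus strand) had 797 and 501 TPM, and its mean lay above 99.2% of protein-coding genes. Its cytosolic paralog Shmt1 was at 55.6 and 60.0 TPM. Shmt2 exceeded Shmt1 by 3.43 ± 0.55 in log2(TPM + 1) (SD, n = 2), beyond the bound, and by 4.16 over the longest coding transcripts. Shmt2 has 1 transcript in the tables, while the Shmt1 level was assigned in part to the retained-intron form Shmt1-206, with 33.3% and 20.98%.

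Downstream of these, Mthfd1, the trifunctional cytosolic enzyme that makes formyl-folate for purines, was at 262 and 203 TPM. Mthfd1l, which releases formate from mitochondria, was at 96.2 and 120 TPM. Mthfd2, the mitochondrial dehydrogenase, was at 55.2 and 62.7 TPM and stood below Mthfd1, with a difference of -1.95 ± 0.38 in log2(TPM + 1) (SD, n = 2), beyond the bound. The difference between Mthfd2 and Mthfd1l, -0.86 ± 0.09 (SD, n = 2), had the same sign in both libraries but lay inside it. Mtr, the methionine synthase, was at 21.5 and 26.7 TPM. The leading form of Mthfd1l differed, with Mthfd1l-202 at 80.9% in replicate 1 and Mthfd1l-201 at 72.4% in replicate 2, though these forms are of like length, 3669 and 3535 nt.

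Taken as compartments, the 3 mitochondrial enzymes (Shmt2, Mthfd2 and Mthfd1l) and the 2 cytosolic enzymes (Shmt1 and Mthfd1) did not separate by their medians. The difference of their medians in log2(TPM + 1), mitochondrial minus cytosolic, was -0.33 in replicate 1 and 0.11 in replicate 2, a mean of -0.11 ± 0.31 (SD, n = 2). Over the longest coding transcripts it was 0.22 ± 0.24 (SD, n = 2). Summed levels were 948 and 684 TPM for the mitochondrial enzymes in replicates 1 and 2, and 317 and 263 TPM for the cytosolic enzymes. Of the mitochondrial sums, Shmt2 gave 797 and 501 TPM.

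In serine synthesis the first enzyme stood near the bottom of the list, while the second was among the most abundant members. Phgdh, the dehydrogenase that opens the route, was at 0.31 and 0.20 TPM, from 13.4 and 16.4 expected counts, a mean of 0.26 ± 0.08 TPM (SD, n = 2). Psat1, the aminotransferase of the second step, was at 329 and 275 TPM, a mean of 302 ± 38.2 (SD, n = 2). Psph, the phosphatase that ends the route, was at 54.9 and 28.4 TPM, a mean of 41.6 ± 18.7 (SD, n = 2). Phgdh minus Psat1 was -7.91 ± 0.09 in log2(TPM + 1) (SD, n = 2), the widest of the 15 pairs compared. At so low a Phgdh level the size depends on the pseudocount, and it was -9.75 in log2(TPM + 0.1). Psat1 exceeded Psph by 2.90 ± 0.47 (SD, n = 2), also beyond the bound.

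Phgdh (chromosome 3: 98313170 to 98339990, minus strand) shares 49.8% of its 36-base stretches with 11 other genes, and the summed level of those genes was 0.77 TPM in replicate 1 and 0.08 TPM in replicate 2. All of its TPM was assigned to the full-length coding form Phgdh-201 of 1893 nt. The Psat1 level rested on different forms in the libraries. Psat1-201, the coding transcript of 2617 nt, held 27.0% in replicate 1 and 92.5% in replicate 2, and Psat1-202, a non-coding transcript of 438 nt, held 48.7% and 4.48%. Over the longest coding transcript Psat1 had 177 and 324 TPM, and Phgdh minus Psat1 was -6.99 in replicate 1 and -8.03 in replicate 2 in log2(TPM + 1), a mean of -7.51. Psph overlaps Cct6a, a chaperonin subunit gene of 123 and 183 TPM on the other strand, over 452 exon bases, so part of the Psph reads may belong to that gene.

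The start windows of the 3 serine enzymes are shown because their levels differ so widely along 1 route. None of them holds the E-box or TGATGCAA, an element bound by ATF4, so they carry no capitals, and this says only that these letters are not in these windows. The Psat1 window is the one at the start of Psat1-201.
Phgdh, chr3:98339920-98340219, minus strand: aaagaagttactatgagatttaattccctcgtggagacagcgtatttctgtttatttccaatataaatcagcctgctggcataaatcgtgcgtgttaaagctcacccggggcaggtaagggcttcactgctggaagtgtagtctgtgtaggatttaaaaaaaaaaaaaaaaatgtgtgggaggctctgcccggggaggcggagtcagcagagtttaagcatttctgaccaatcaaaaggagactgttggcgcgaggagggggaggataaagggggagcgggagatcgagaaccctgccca
Psat1, chr19:15925010-15925309, minus strand: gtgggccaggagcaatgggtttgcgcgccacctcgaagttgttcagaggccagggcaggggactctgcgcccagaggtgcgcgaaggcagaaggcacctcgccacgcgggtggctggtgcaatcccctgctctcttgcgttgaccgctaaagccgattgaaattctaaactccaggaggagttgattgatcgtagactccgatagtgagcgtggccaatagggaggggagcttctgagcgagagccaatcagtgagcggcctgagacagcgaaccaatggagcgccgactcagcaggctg
Psph, chr5:129787204-129787503, minus strand: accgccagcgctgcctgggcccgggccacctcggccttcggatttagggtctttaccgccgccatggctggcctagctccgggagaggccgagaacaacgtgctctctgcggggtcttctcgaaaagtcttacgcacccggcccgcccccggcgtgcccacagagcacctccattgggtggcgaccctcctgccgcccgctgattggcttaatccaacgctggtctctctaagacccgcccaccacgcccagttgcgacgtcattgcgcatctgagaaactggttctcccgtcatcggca
They hold 11, 20 and 28 CG dinucleotides in that order. The Phgdh window thus holds fewer than those of Psat1 and Psph, and more than the median of 7 over all windows.

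Over the whole list, RefSeq gave 46 windows of 300 bases for 35 of the genes, Pnp included, and none for Dhodh and Pfas. The E-box, which reads the same on both strands, was found in 6 of 46 windows, or 13.0%, beside 7.15% of all windows. Those windows belong to Paics, Atic, Impdh2, Nme1, with 2 overlapping windows, and Ampd3. The ATF4 element was searched on both strands and was in 0 of 46 windows, beside 0.895% of all. The median number of CG dinucleotides was 18.5 in the windows of the list, with a range from 3 to 36, beside 7 over all windows. The E-box itself contains a CG, so its shares were taken from windows of unlike CG content.

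The comparison of de novo with salvage enzymes gave no direction that held in both libraries. The de novo arm held the 16 genes of the purine ring, the AMP and GMP branches and pyrimidine synthesis, and the salvage arm Hprt, Aprt, Adk and Dck. In replicate 1 the median was 54.5 TPM for the de novo arm and 39.2 TPM for salvage, and in replicate 2 it was 59.2 TPM and 106 TPM. The difference of medians in log2(TPM + 1), de novo minus salvage, was 0.46 in replicate 1 and -0.83 in replicate 2, a mean of -0.19 ± 0.91 (SD, n = 2). No test was run, because flipping signs over 2 libraries gives p = 0.5 at the smallest in an exact test. The arms overlapped widely in both libraries. Aprt stood above most de novo genes, and Dck below all of them but Adssl1 in replicate 1, and but Adssl1, Impdh1 and Ctps2 in replicate 2.

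**Figure D2:**
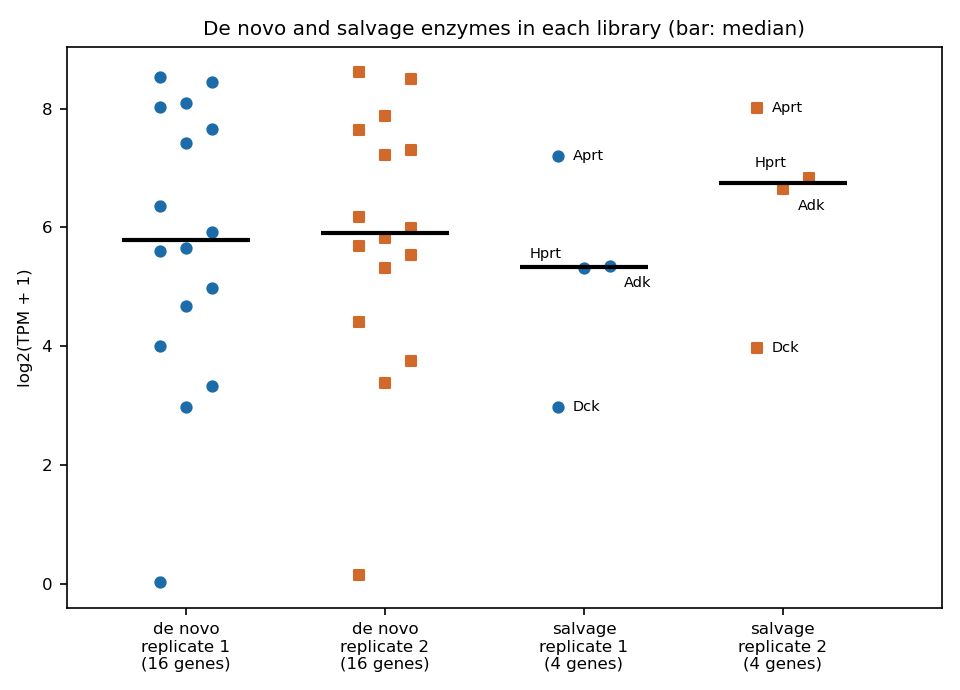
Levels of the 16 de novo and 4 salvage genes as log2(TPM + 1), circles for replicate 1 and squares for replicate 2, with a bar at the median of each arm. The de novo medians lie close together, while the salvage median is lower than the de novo median in replicate 1 and higher in replicate 2.

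The summed level of the de novo arm was 1945 and 1854 TPM in replicates 1 and 2, and that of the salvage arm 232 and 484 TPM. These sums run over 16 and 4 genes and depend on which genes were listed. The salvage arm leaves out the nucleoside kinases Uck2, at 436 and 235 TPM, and Tk1, at 142 and 141 TPM. Single de novo genes also stood far apart, such as Adss and Gmps, higher in replicate 2, and Impdh1, higher in replicate 1. The arms differ in GC content, with medians of 50.3% for de novo and 41.4% for salvage. On scaled counts the median log2 ratio of replicate 2 over replicate 1 was 0.41 for the 15 de novo genes with at least 50 counts and 1.498 for salvage. With the GC trend of all genes subtracted these medians were 0.28 and 0.34. For purine genes of the de novo arm, median log2(TPM + 1) minus that of salvage was 0.59 and -0.92 in replicates 1 and 2. For the pyrimidine genes it was 0.32 and -0.75, against the same salvage arm, where Hprt, Aprt and Adk act on purines. Over the longest coding transcripts, de novo minus salvage for the whole arm was 0.02 in replicate 1 and -1.27 in replicate 2. The mean was -0.63 ± 0.92 (SD, n = 2). Between the gatekeepers of the routes, Hprt exceeded Ppat by 0.97 ± 0.47 in log2(TPM + 1) (SD, n = 2), inside the bound, and by 1.31 over the longest coding transcripts, beyond it.

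Of 16 pairs of paralogs and partner enzymes, 15 could be computed, Ada with Pnp being left out. In 11 of these the mean lay beyond the bound with the same sign in both libraries. The share over other pairs of expressed genes was not computed, so this count shows nothing particular to paralogs or partner enzymes. The bound of 1.23 is the normal-theory half-width at 95% from the SD between libraries, 0.63 in log2(TPM + 1) pooled over 10469 expressed genes, and is no test of a single pair. Beside the pairs given above, Paics exceeded Ppat by 3.42 ± 0.49 (SD, n = 2), and by 2.60 over the longest coding transcripts. Pairs inside the bound were Prps1 with Prps2, Nme1 with Nme2, Mthfd2 with Mthfd1l and Hprt with Ppat.

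**Figure D3:**
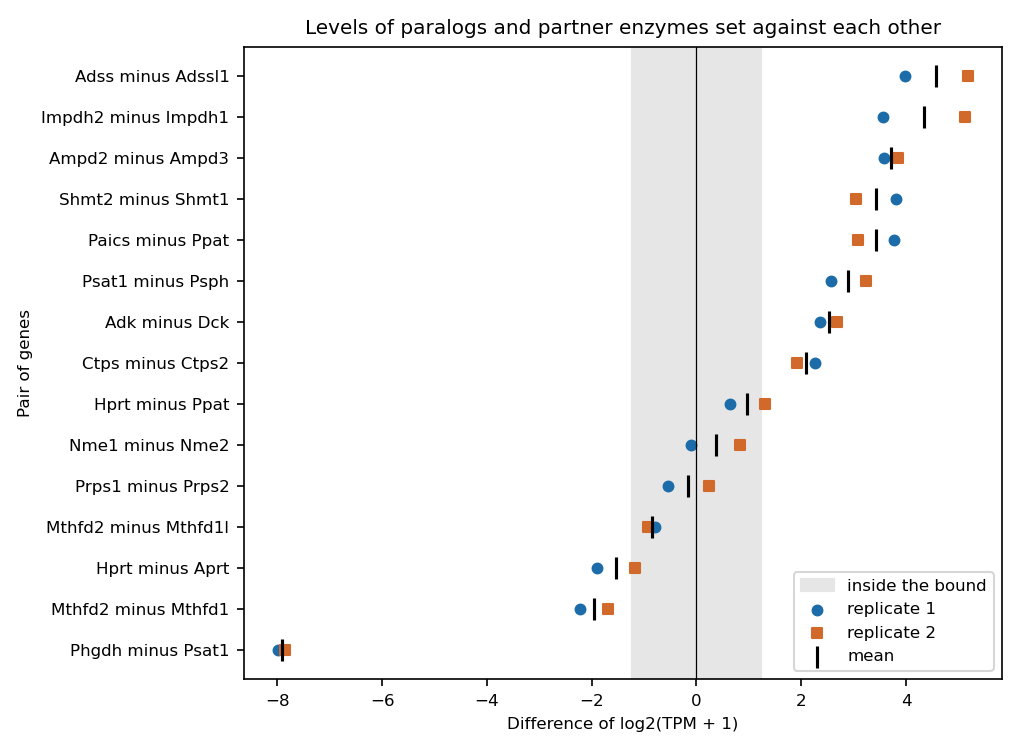
Difference of log2(TPM + 1) for 15 pairs, with circles for replicate 1, squares for replicate 2, a stroke for the mean and a grey band for the bound of 1.23 on the mean. The difference of Phgdh and Psat1 lies near -7.91, far from the rest, and 4 pairs have their mean in the band.

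Scaled counts, which do not depend on the TPM total, also placed several members apart between the libraries. Counts were scaled by TMM library sizes, and the ratio is given as log2 of replicate 2 over replicate 1, with a median of 0.28 over all 12414 genes tested. Of the 33 members with at least 50 counts in total, 10 were at least 2-fold higher in replicate 2, beside 22.4% of all genes tested. They were Prps1 (1.87), Gmps (1.86), Hprt (1.83), Adss (1.83), Adk (1.61), Dck (1.38), Psat1 (1.22), Ctps (1.11), Aprt (1.08) and Ppat (1.07). At least 2-fold higher in replicate 1 were Impdh1 (-1.11) and Nme2 (-1.05), 2 of 33 beside 10.2%. With counts scaled to the library total, which moves the median of all genes to 0.079, all of these but Ctps, Aprt and Ppat were 2-fold apart, beside 17.5% of all genes higher in replicate 2 and 12.3% higher in replicate 1. On TPM rescaled over protein-coding genes 8 members were 2-fold apart, where the shares of all genes were 17.6% and 12.6%. On that scale Prps1 (0.97), Aprt (0.97) and Ctps (0.25) came under 2-fold, and Psat1 turned direction (-0.091). There is 1 library on each side, so these ratios carry no p-value.

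Of these 10 genes, all but Aprt lay under the median GC content of the tested members, 51.0%. Across the 33 genes, the ratio fell with the GC content of the transcripts, with Pearson's r = -0.77 and Spearman's rho = -0.75. Across all 12330 genes with a GC value these were -0.20 and -0.39. The genes share the same 2 libraries and are not independent replicates. GC content was 39.0% for Gmps, 40.1% for Hprt, 40.7% for Adk, 41.9% for Adss and 42.2% for Dck. With the GC trend of all genes subtracted, 4 of the 12 stayed 2-fold apart. These were Prps1 (1.33) and Aprt (1.13), higher in replicate 2, beside 9.75% of all genes under this step, and Impdh1 (-1.05) and Nme2 (-1.01), higher in replicate 1, beside 13.1%. Hprt then stood at 0.40, Gmps at 0.28, Adk at 0.26 and Dck at 0.28. Of the salvage arm only Aprt, at 58.7% GC, thus kept a ratio past 2-fold after this step. Read length also differs between the libraries, and its part in these ratios cannot be told apart from the replicate.

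**Figure D4:**
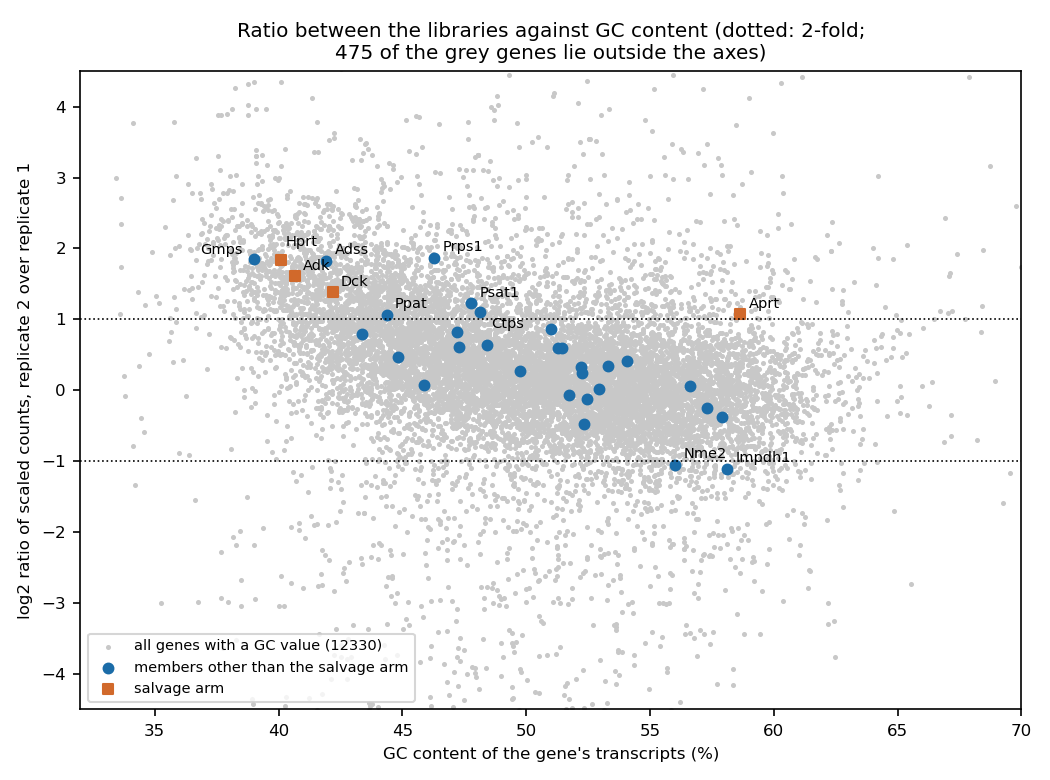
Log2 ratio of scaled counts, replicate 2 over replicate 1, against the GC content of each gene's transcripts in percent, with members in colour over all genes in grey and dotted lines at 2-fold. Gmps, Hprt, Adk, Adss and Dck lie high at the left, while Aprt lies high at 58.7% GC, and 475 of the grey genes lie outside the axes.

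Of the 26 members with 2 or more transcripts and at least 10 counts in each library, 17 had the same leading transcript in both, or 65.4%, beside 67.1% of 8124 genes. The other 9 were Prps1, Cad, Dhodh, Ctps, Ctps2, Ampd2, Shmt1, Mthfd1l and Psat1. In 6 of these, Prps1, Cad, Dhodh, Ctps, Ampd2 and Psat1, the leading form of replicate 1 was between 438 and 582 nt long. Such short forms have a small effective length, which raises the TPM of the gene for the same count. For Prps1 the 463-nt form Prps1-202 held 53.5% in replicate 1 and 0% in replicate 2.

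Dividing each count by the effective length of the longest coding transcript gave 6 expressed members a mean level over 1.5-fold lower than the deposited one. Nme1 went from 108 to 43.1 TPM, Prps2 from 34.0 to 14.8, Adsl from 160 to 89.9, Paics from 368 to 210, Cad from 209 to 135 and Ctps2 from 10.8 to 7.02. No expressed member was over 1.5-fold higher. How many of all genes move as far by this rule was not counted. The leading genes by this measure were Shmt2 at 821 ± 286 TPM, Impdh2 at 352 ± 17.7 and Atic at 317 ± 42.5 (SD, n = 2).

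**Figure D5:**
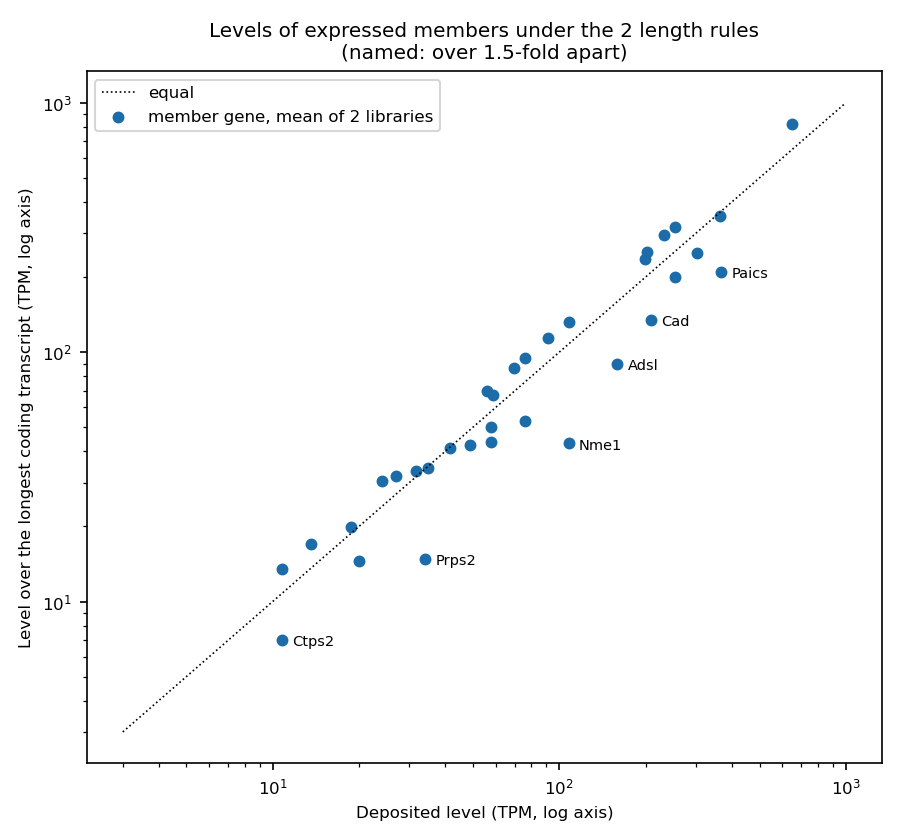
Mean level of each expressed member over the 2 libraries, deposited TPM on the horizontal axis and the level over the longest coding transcript on the vertical axis, both log axes. The 6 named genes lie under the dotted line of equality by over 1.5-fold, Nme1 and Prps2 furthest.

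By the rule used above, 42.5% of protein-coding genes were expressed, which is the background for the lists that follow. Among other genes of these pathways, the folate and methyl cycle list had 12 of 28 members expressed by that rule, near this share. Its highest were Mat2a, a methionine adenosyltransferase, at 131 ± 92.0 TPM, its regulatory partner Mat2b at 78.9 ± 11.7, and Fpgs, which traps folate in cells, at 75.5 ± 25.4 (SD, n = 2). Gldc, of the glycine cleavage system, and Aldh1l1, which oxidises formyl-folate in the cytosol, were at 0.12 TPM or less in both. Of the list on serine use and breakdown, 4 of 5 were expressed, with Sptlc2 and Sptlc1, of sphingolipid synthesis, at 47.7 ± 22.7 and 17.8 ± 2.89 TPM (SD, n = 2). Sds, a serine dehydratase, was listed at 0 in both.

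Further salvage, breakdown and transport genes were expressed in 16 of 27 cases, beside the same 42.5%. Uck2, a uridine-cytidine kinase, was at 436 and 235 TPM, the nucleoside transporter Slc29a1 at 206 and 179 TPM, and the thymidine kinase Tk1 at 142 and 141 TPM. Each of these exceeded Hprt and Adk in both libraries. Xdh, the xanthine dehydrogenase that makes uric acid, was at 0.07 TPM or less, and Cda, the cytidine deaminase, was listed at 0. Of the kinases and PRPP-associated genes, 15 of 20 were expressed, among them the thymidylate kinase Dtymk at 317 ± 6.59 TPM and the GMP reductase Gmpr at 191 ± 23.6 (SD, n = 2). Ampd1, the muscle AMP deaminase, and the nucleoside monophosphate kinase Cmpk2 were under 1 TPM in both.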

How the data were processed

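Poly(A) RNA of G1E cells was read in 2 libraries of 1 group, each with a gene and a transcript table. The members and lists were chosen with earlier results of these data known. Per the labels and the deposited notes the tables rest on mm10 and annotation release M4; the sources used here give no aligner, quantifier or strand use. Expected counts were deposited unnormalised. TPM and FPKM were deposited as counts over effective length, scaled per library. The deposited signal columns hold a posterior mean TPM with its interval, and the percent column, per the file headers, the share of a gene's TPM on each transcript.

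Names, positions and transcripts came from GENCODE M21 of GRCm38, on which 42462 of 43346 identifiers matched. The 26345 entries naming no gene, with 0.0363% and 0.00942% of the counts, were left out. Expected counts were rounded for scaling with edgeR 4.0.16 (TMM factors 1.07 and 0.934), and 0.5 was added before ratios; the steps were tested on simulated data. DESeq2 1.42.0 gave alternative size factors. The GC trend was a lowess with a span of 0.3. Sequence sharing was counted over all 36-base stretches of a member's transcripts, and partners are genes holding at least 1% of them. The text names all members, fixed pairs, and of each other list up to 3 of highest mean TPM and up to 2 under 1 TPM. Prps1l3, Impdh2-ps, Gm20390 and Cct6a were named for overlap with members. With 2 libraries no test was run; intervals would cover counting error only. Alternatives were other pseudocounts, scales, thresholds, arms and lengths, and each library alone. Python 3.11.15, pandas 2.3.3, scipy 1.17.1 and statsmodels 0.14.6 were used.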

Additional observations from a re-analysis of the deposited data

How the results depend on the processing

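The count of 33 expressed members, the 11 pairs beyond the bound and the leading transcripts stayed within 1.5-fold of their counts under every alternative run for them. The library ratio count was 12, and became 4 with the GC trend subtracted and 19 at 1.5-fold; by construction the latter asks for less. De novo minus salvage ranged from -0.83 to 0.46 when 1 library was left out, so its sign rests on the library. Between the medians of mitochondrial and cytosolic folate enzymes, the difference ranged from -0.33 to 0.11 when 1 library was left out. It was 0.22 with the longest coding length, an alternative chosen after seeing the data. With that length Nme1 minus Nme2 was -1.25. The ratio of Psat1 between the libraries was -0.091 on TPM over protein-coding genes in place of 1.22 on scaled counts; the cause was not tested. The pairs Mthfd2 with Mthfd1 and Hprt with Aprt came inside the wider bound of a single library in replicate 2. Pnp could be added neither to the salvage arm nor to a pair. No paired analysis was possible because the series has 1 group. Depth limits Adssl1, Ada and Phgdh, which rest on 1 to 27 expected counts.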

Other observations

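A few genes of the wider pathway lists lay lower than their neighbours in both libraries; they were named after their values were seen. Mtap, the phosphorylase that returns methylthioadenosine from polyamine synthesis to the adenine and methionine pools, was at 0.09 and 0.06 TPM, from 6 and 7 expected counts, while Aprt, which takes up the adenine it releases, was at 147 and 257 TPM. Ggh, which removes the glutamate tail of folates, had 0.13 TPM in replicate 1 and was listed at 0 in replicate 2, and Fpgs, which adds that tail, was at 93.5 and 57.5 TPM. Ahcy, which clears the product of methylation reactions, was at 6.96 and 4.42 TPM, and whether it shares sequence with other genes was not examined. Slc19a1, the reduced folate carrier, was at 80.9 and 44.9 TPM, while the folate receptors Folr1 and Folr2 were at most at 3.73 TPM in either library.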
